A study of Homo sapiens with 16 samples.

Results

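The genes described here are 44 genes of the G2 phase and of mitosis: cyclins and kinases, checkpoint and kinetochore proteins, spindle motors and the proteins of cytokinesis. They were chosen by name and found as 44 rows of a count table with 58735 genes, and 43 of them had enough counts for the tests, which covered 18121 genes. Polyadenylated RNA was sequenced from differentiated HepaRG cells, an established human liver line that holds hepatocyte-like and cholangiocyte-like cells. The cells received for 3 days 30 nM formoterol together with 0.25 mM palmitic and 0.5 mM oleic acid (called the combination below), the fatty acids alone, formoterol alone, or vehicle, which was 1% bovine serum albumin (control). All 4 groups stayed in medium with 2% DMSO, the agent that keeps the line differentiated, and each group has 4 libraries, 16 in all. The labels name albumin for the controls only, and they call the replicates independent without saying that they were separate cultures, so p-values measure the spread between these libraries, which may be technical. HepaRG is a single line.

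Cells enter mitosis when cyclin B and CDK1 form an active kinase, which the phosphatase CDC25C and the polo-like and Aurora kinases help to switch on. The spindle checkpoint then holds cells before anaphase until every kinetochore is attached, after which CDC20 and the anaphase-promoting complex mark cyclin B and securin for destruction. Most of these genes are transcribed late in the cell cycle under B-MYB, FOXM1 and NF-Y and are repressed in resting cells by the DREAM complex, which contacts a promoter element called the cell cycle genes homology region (CHR). Hepatocytes of the adult liver are mostly quiescent and differentiated HepaRG cells divide little, so these transcripts come to a large extent from cells in or near division. In bulk RNA, more dividing cells and more RNA per dividing cell cannot be told apart.

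Promoter sequence was available for 37 of the 44 genes in RefSeq's table for GRCh38.p14, which gives 250 bases before and 50 bases after a start site. The following lines print the 150 bases before the start, 5′ to 3′ on the gene's own strand, for genes that the results below turn on. Capitals mark CHR letters (TTTGAA or TTTAAA, or TTCAAA on the other strand) and CCAAT boxes (CCAAT, or ATTGG on the other strand), the site of NF-Y. CCNB1, CDC20, MKI67, TOP2A, PLK1 and KIF4A were higher with the combination, CCNB2 did not pass a test, and CKAP2 is shown because its window holds neither motif.
CCNB1, chr5:69167000-69167149, plus strand: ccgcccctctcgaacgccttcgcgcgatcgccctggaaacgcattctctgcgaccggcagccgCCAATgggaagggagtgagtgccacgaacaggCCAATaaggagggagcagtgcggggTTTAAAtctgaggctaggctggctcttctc
CDC20, chr1:43358831-43358980, plus strand: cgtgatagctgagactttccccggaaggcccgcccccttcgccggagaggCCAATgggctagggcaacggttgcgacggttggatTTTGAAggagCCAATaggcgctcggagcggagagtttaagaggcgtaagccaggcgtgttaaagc
MKI67, chr10:128126424-128126573, minus strand: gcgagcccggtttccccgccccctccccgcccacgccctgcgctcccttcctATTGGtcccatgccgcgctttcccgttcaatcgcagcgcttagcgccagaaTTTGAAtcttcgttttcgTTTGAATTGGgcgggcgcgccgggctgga
TOP2A, chr17:40417897-40418046, minus strand: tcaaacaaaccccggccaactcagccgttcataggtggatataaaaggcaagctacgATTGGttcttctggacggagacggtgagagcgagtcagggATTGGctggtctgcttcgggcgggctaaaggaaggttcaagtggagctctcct
PLK1, chr16:23678739-23678888, plus strand: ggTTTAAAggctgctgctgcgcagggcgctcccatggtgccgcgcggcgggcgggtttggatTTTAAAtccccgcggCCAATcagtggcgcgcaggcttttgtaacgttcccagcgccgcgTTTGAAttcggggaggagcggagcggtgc
KIF4A, chrX:70289954-70290103, plus strand: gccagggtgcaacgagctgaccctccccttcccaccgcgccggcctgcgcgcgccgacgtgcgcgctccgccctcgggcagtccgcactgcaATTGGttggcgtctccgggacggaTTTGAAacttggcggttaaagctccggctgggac
CCNB2, chr15:59104996-59105145, plus strand: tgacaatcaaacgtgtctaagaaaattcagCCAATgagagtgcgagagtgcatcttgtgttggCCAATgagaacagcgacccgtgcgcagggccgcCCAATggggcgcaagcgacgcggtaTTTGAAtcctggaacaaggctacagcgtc
CKAP2, chr13:52455838-52455987, plus strand: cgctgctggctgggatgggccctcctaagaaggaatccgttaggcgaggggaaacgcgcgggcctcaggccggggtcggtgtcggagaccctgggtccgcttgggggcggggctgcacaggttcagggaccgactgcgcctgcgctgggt

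With 1 window for each gene, 31 of the 37 mitotic genes (83.8%) held a CHR element in the 300 bases, against 24.5% of all 27305 genes in the table, also with 1 window each. The windows were chosen by different rules: nearest the annotated gene start for the mitotic genes, and lowest coordinate for the set of all genes. With every window kept, a CHR element was in 81.8% of 44 mitotic windows and in 24% of all 35116. A CCAAT box was present in 29 (78.4%), against 35.6% of all genes, and at least 2 boxes in 19 (51.4%), against 11.1%. Both motifs together were present in 25 (67.6%), against 9.60% of all genes. A CHR element began within 50 bases before the start in 21 of the 37, and a CCAAT box within 120 bases before it in 25. These positions were not counted over all genes, so no background share stands beside them. In MKI67 the CHR closest to the start and a CCAAT box share letters, so the counts there are not independent. AURKB, BUB1, CCNA2, CDC25C, CKAP2 and NEK2 had no CHR letters in the window, and CDC25C and CKAP2 had no CCAAT box either. The windows of CKAP2 and PLK1 lie inside the annotated genes, which start at 52455429 and 23677656. They do not show the sequence before those starts. A match of letters is a description of the window and not a binding site.

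**Figure D1:**
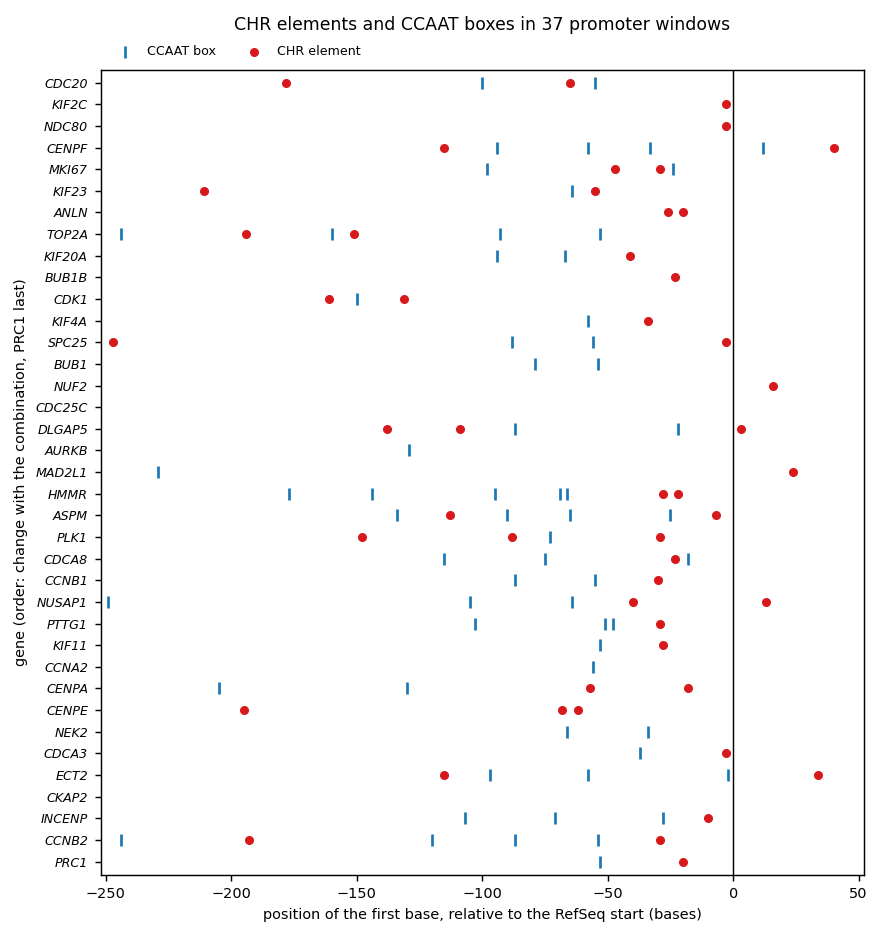
Positions of CHR elements (red points) and CCAAT boxes (blue ticks) in the promoter windows of 37 mitotic genes, 1 row a gene, as bases from the RefSeq start. Genes run from the highest change with the combination against control at the top to the lowest, with PRC1 last. A CHR element lies within 50 bases before the start in 21 genes, a position not counted over all genes, and CDC25C and CKAP2 have no mark.

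Depth lay between 33071030 and 41682806 counts with the combination, 32471299 and 39164756 with fatty acids, 32781888 and 65673126 with formoterol (replicate 4 was the deepest) and 33293708 and 34936732 in control. Levels below are CPM, counts per 1e6 of the library size after TMM scaling. One library stood apart. In combination replicate 2 the 43 tested mitotic genes summed to 1804 CPM, against 1065 to 1114 CPM in the other 3 combination libraries. Of the 43 genes, 41 were highest of the group in this library, with a median of 1.70 times the level of the other 3, while 32.8% of all tested genes were highest there. The sum of the 17 hepatocyte markers, albumin among them, moved the other way and was 28041 CPM in this library, against 61215 to 68019 CPM in the other 3. Not every marker did so, and CPS1 lay between 72.1 and 77.9 CPM in all combination libraries. Results that involve the combination are therefore also given without replicate 2, and the part of this difference in them was not tested further.

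Summed over the 43 genes, the mitotic transcripts reached 1065 to 1804 CPM with the combination, 718 to 978 CPM with fatty acids, 564 to 632 CPM with formoterol and 447 to 520.0 CPM in control. The 4 groups did not overlap in this sum. The sums of the hepatocyte markers had another order, with 28041 to 68019 CPM with the combination, 57746 to 65530 CPM with fatty acids, 68529 to 73741 CPM with formoterol and 30004 to 44030 CPM in control. Every treated library except combination replicate 2 thus exceeded every control library in both sums, and that library exceeded them in the mitotic sum only. The part of cell type make-up in the mitotic results was not tested.

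**Figure D2:**
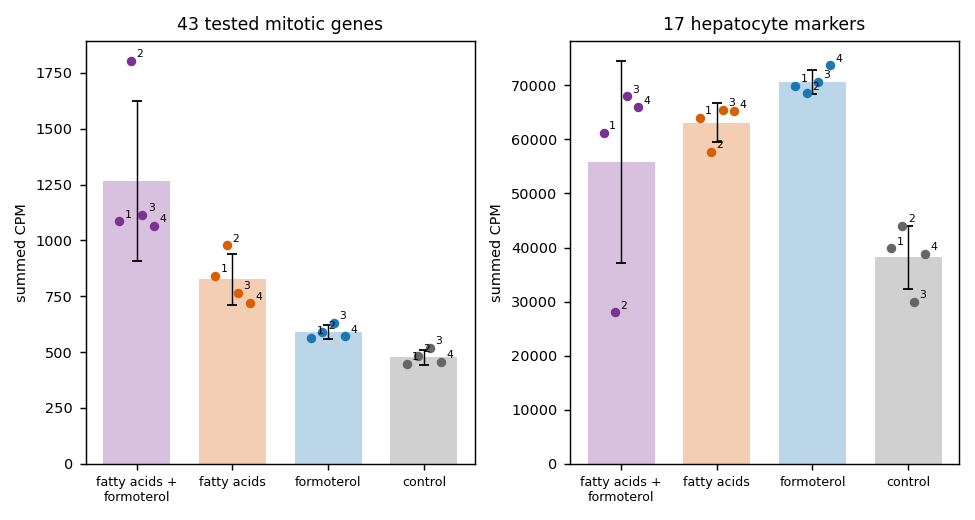
Summed CPM of the 43 tested mitotic genes (left) and of 17 hepatocyte markers (right) in each library; points are libraries with their replicate numbers, bars are group means and error bars ± 1 SD (n = 4). Combination replicate 2 is the highest library on the left (1804 CPM) and the lowest on the right (28041 CPM).

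Per length of transcript, BUB3, a checkpoint protein that also has work outside mitosis, was the most abundant of the 44 in control at 11.0 RPKM (CPM divided by the gene length in kilobases). TOP2A, the topoisomerase that untangles sister chromatids, followed at 7.87 RPKM, the microtubule protein CKAP2 at 7.28 RPKM and the contractile ring protein ANLN at 4.94 RPKM. At the other end stood CCNB2 at 0.128 RPKM and PRC1 at 0.0179 RPKM. The order of the group means was combination, fatty acids, formoterol, control from high to low in 40 of the 44 genes. AURKA had formoterol above fatty acids, and BUB3, CCNB2 and UBE2C each had another order.

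The addition of palmitic and oleic acid was compared with vehicle to see how a fatty acid load bears on these genes. Of the 43 tested, 36 rose with fatty acids and 0 fell in edgeR's quasi-likelihood test at a Benjamini-Hochberg adjusted p under 0.05, where 8.93% of all tested genes rose and 7.62% fell. The median log2 fold change of the 43 was 0.90, or 1.87-fold, against 0.01 over all genes, and 11 genes rose at least 2-fold, as 1.51% of all genes did. In 34 of the 43 the 4 fatty acid libraries all lay above the 4 control libraries, which held for 11.3% of all genes. SPC25, a subunit of the kinetochore complex that grips microtubules, had the highest change at 1.46 ± 0.21 (SE). The 7 that did not pass were CCNB2, CDCA3, INCENP, BUB3, CENPA, UBE2C and NUSAP1, with changes from −0.69 to 0.95. When each of the 16 libraries was left out in turn, 28 to 38 genes passed, and 27 of the 36 passed in every such fit. Of all genes 16.5% changed in either direction with all libraries, 12.7% in the fit with 28 and 19.4% in that with 38.

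Formoterol, a beta-adrenergic agonist that raises cyclic AMP, was compared with vehicle in the same way. Of the 43 genes, 8 rose with formoterol and 0 fell, where 5.76% of all tested genes rose and 4.57% fell. These were FOXM1, CCNB1, CDK1, AURKA, MAD2L1, KIF2C, KIF4A and ECT2. The median log2 fold change of the 43 was 0.36, or 1.29-fold, against −0.0022 over all genes. An unadjusted p under 0.05 was found for 19 genes, all of them higher, and in 11 genes all formoterol libraries lay above all control libraries, as in 9.30% of all genes. The count depended on single libraries: it was 4 without control replicate 1, control replicate 2, formoterol replicate 3 or formoterol replicate 4, 5 without control replicate 4, and 18 without combination replicate 2, which enters this fit through the shared estimate of spread. In these fits 8.67%, 8.23%, 7.30%, 6.01%, 7.81% and 14.0% of all genes changed in either direction, in that order, against 10.3% with all libraries. CCNB1 and KIF4A passed in all 16 of the fits that leave out 1 library. With scaling by total counts alone the count was 1, the median of all genes moved by −0.13 and that of the 43 genes was 0.36 above it, and the share of higher genes among all calls was 20.2% in place of 55.7%.

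With fatty acids and formoterol together, 40 of the 43 genes rose against control and 0 fell, where 7.58% of all tested genes rose and 6.68% fell. The median log2 fold change was 1.62, or 3.07-fold, against 0.0043 over all genes, with quartiles of 1.45 and 1.75. At least 2-fold rises were found for 38 genes and for 1.87% of all genes. The 4 combination libraries lay above the 4 control libraries in 41 genes, which held for 8.00% of all genes. BUB3, CCNB2 and UBE2C did not pass, at 0.15 ± 0.07, −0.21 ± 0.53 and −0.78 ± 0.47 (edgeR adjusted p = 0.166, 0.861 and 0.315). All 40 passed whichever library was left out, and without combination replicate 2 the median was 1.39. All comparisons with control share the 4 control libraries.

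**Figure D3:**
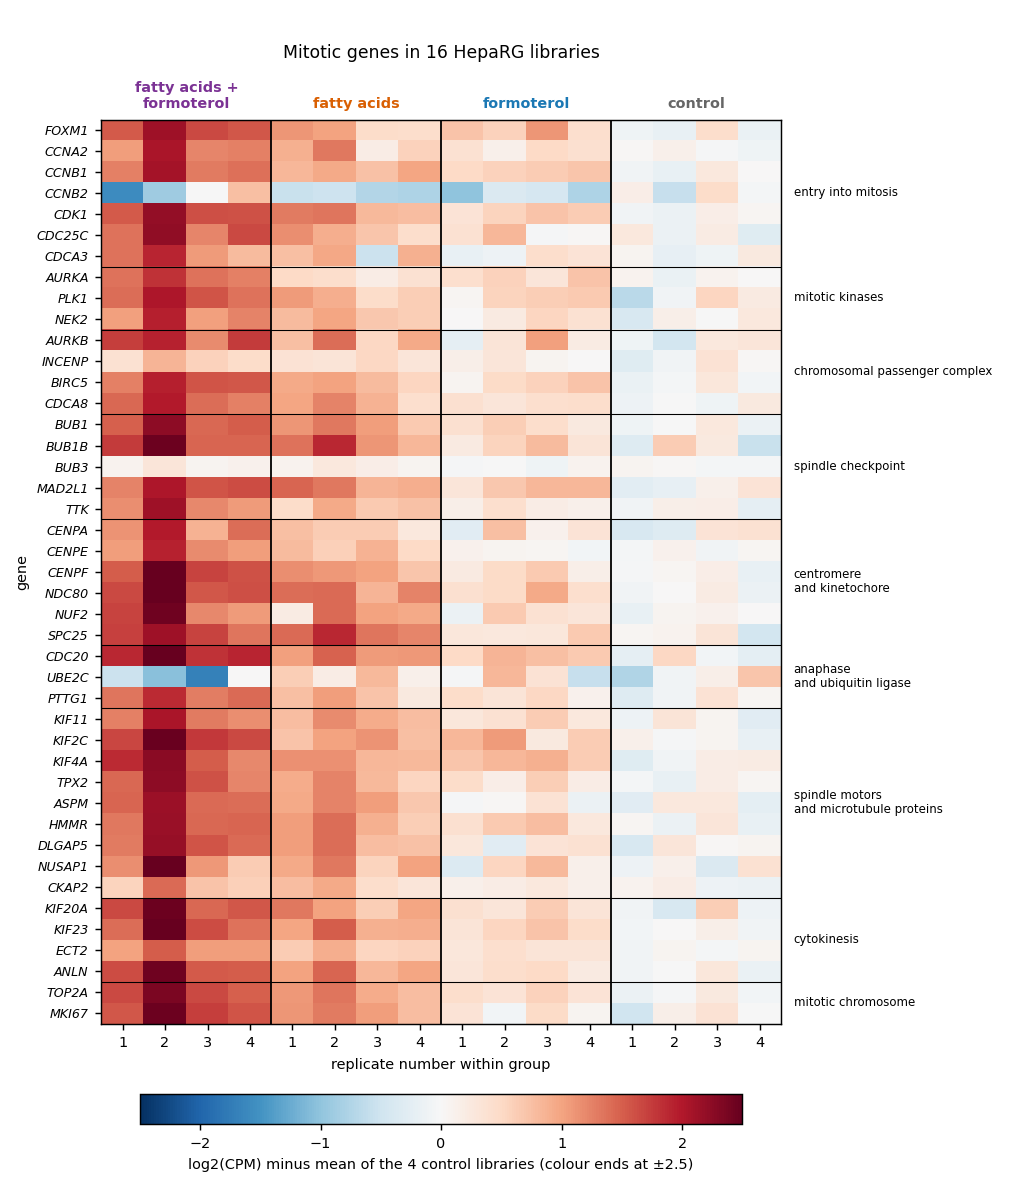
Level of the 43 tested mitotic genes in each of the 16 libraries as log2(CPM) minus the mean of the 4 control libraries, with genes in rows by role and libraries in columns; red is higher and blue lower than control, and the colour ends at ±2.5. Combination replicate 2 is the darkest column, and CCNB2, UBE2C and BUB3 are the rows that do not follow the others.

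Formoterol on top of fatty acids was tested by setting the combination against fatty acids alone. Here 22 of the 43 genes rose and 0 fell, where 1.68% of all tested genes rose and 1.12% fell, with a median log2 fold change of 0.69 against 0.00043 over all genes. In 25 genes all combination libraries lay above all fatty acid libraries, as in 4.34% of all genes, and in 1, UBE2C, they lay below, as in 5.01%. Leaving out 1 library gave 9 to 24 genes, with 9 without fatty acids replicate 3 or fatty acids replicate 4, and 8 of the 22 passed in every such fit: AURKA, BIRC5, CDC20, CENPF, ECT2, FOXM1, KIF2C and TOP2A. Without combination replicate 2 the count was 16 and the median 0.43. A fit of only these 8 libraries also gave 9 genes. Of all genes 2.80% changed in either direction with all libraries and 3.19% without combination replicate 2. The fits with 9 genes had 1.62%, 1.90% and 1.61%, in the order named.

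Fatty acids on top of formoterol were tested by setting the combination against formoterol alone, with 40 of the 43 genes higher in the combination than with formoterol and 0 lower, where 9.48% of all tested genes rose and 8.97% fell. The median log2 fold change was 1.19 against 0.01 over all genes, 33 genes rose at least 2-fold, as 2.39% of all genes did, and 39 had libraries that did not overlap, as in 9.98%. Without combination replicate 2 the count was 38 and the median 0.97. In that fit 14.6% of all genes changed in either direction, against 18.4% with all libraries. Under scaling by total counts alone the median of all genes moved by 0.13, the mitotic genes lay 1.20 above it with 41 genes past the threshold, and 81.0% of all calls were higher in place of 51.4%.

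**Figure D4:**
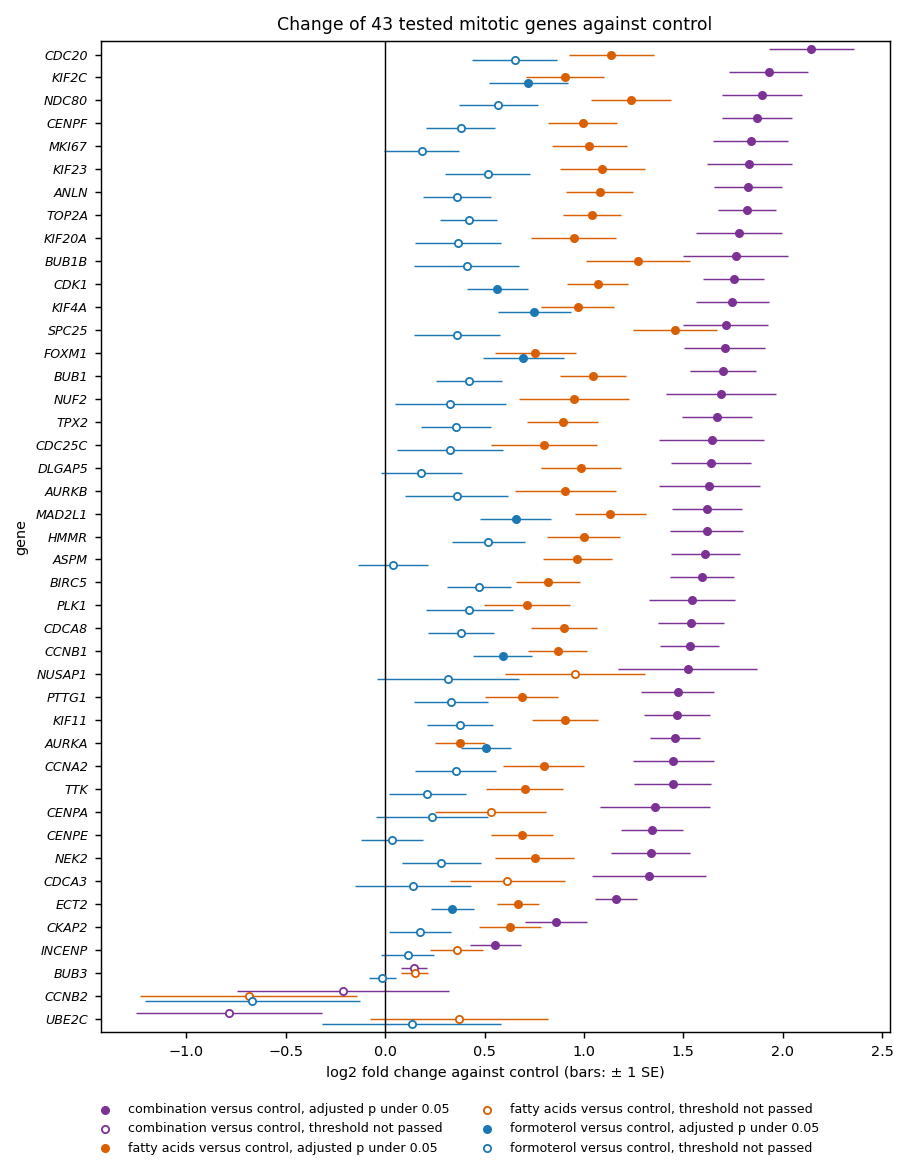
Log2 fold change against control of 43 mitotic genes with the combination (purple), fatty acids (orange) and formoterol (blue), with bars of ± 1 SE; filled points passed the adjusted p of 0.05. The purple points of 40 genes lie right of 0 past the threshold, against 36 orange and 8 blue points.

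Whether both treatments together differed from the sum of each alone was asked with the interaction term: the change that formoterol made on fatty acids minus the change it made on vehicle. For this term 0 of the 43 genes passed edgeR's test, 4 had an unadjusted p under 0.05, all higher, and DESeq2 passed 1, where 2.12% of all genes were higher and 3.38% lower past the threshold. The median of the sums was 1.27 and that of the measured combination 1.62, and 40 of the 43 lay above the sum, with a median excess of 0.30 against 0.01 over all genes. Without combination replicate 2, 28 of the 43 lay above the sum and the median excess was 0.07. AURKA came closest to the threshold at 0.57 ± 0.18 (edgeR adjusted p = 0.0579), and it passed without combination replicate 4 (0.0415) or control replicate 2 (0.0466). Under scaling by total counts alone 1 gene passed, the median of all genes moved by 0.16, the mitotic genes lay 0.31 above it, and 74.6% of all calls were higher in place of 38.5%. That 0 genes passed does not show that the 2 treatments added up.

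**Figure D5:**
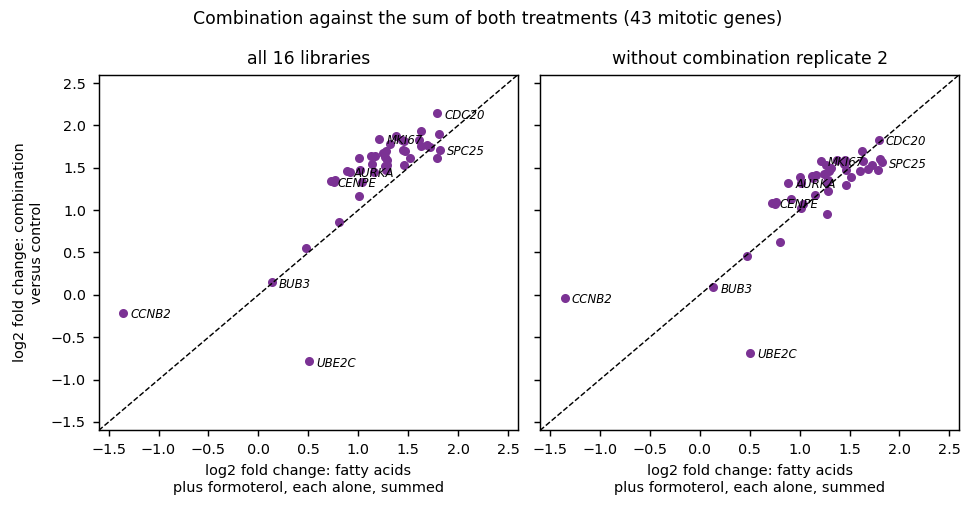
Log2 fold change of the combination against control (vertical) and the sum of the changes with fatty acids and with formoterol alone (horizontal) for 43 mitotic genes, over all 16 libraries (left) and without combination replicate 2 (right); the dashed line marks equality. On the left 40 genes lie above the line, on the right 28.

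Entry into mitosis comprised 7 genes, of which 6 rose with the combination, 5 with fatty acids and 3 with formoterol. CDK1 (ENSG00000170312, chromosome 10, 60778331 to 60794852, plus strand), the kinase that starts mitosis, had 27.1, 42.9, 28.8 and 28.2 CPM with the combination, 23.0, 23.6, 16.4 and 16.1 with fatty acids, 11.9, 13.7, 15.4 and 14.6 with formoterol and 8.88, 8.47, 10.6 and 9.72 in control. The 4 groups followed each other without overlap. Its change was 1.75 ± 0.15 with the combination, 1.07 ± 0.15 with fatty acids and 0.56 ± 0.15 with formoterol (edgeR quasi-likelihood test, Benjamini-Hochberg adjusted p = 6.27e-08, 3.79e-05 and 0.0216). The formoterol call was lost without control replicate 1 (0.055), control replicate 2 (0.0614), formoterol replicate 3 (0.0656) or formoterol replicate 4 (0.0615), with the adjusted p in brackets. CCNB1 (ENSG00000134057, chromosome 5, 69167010 to 69178245, plus strand), the cyclin B1 that activates CDK1, had 24.5, 43.0, 25.0 and 26.4 CPM with the combination, 18.1, 19.7, 16.9 and 20.3 with fatty acids, 14.5, 15.2, 15.7 and 16.5 with formoterol and 9.62, 8.96, 12.2 and 10.3 in control. Combination, fatty acid, formoterol and control libraries were again separate, and all 3 changes passed at 1.53 ± 0.15, 0.87 ± 0.15 and 0.59 ± 0.15 (adjusted p = 2.54e-07, 0.000267 and 0.0136). FOXM1 (ENSG00000111206, chromosome 12, 2857681 to 2877155, minus strand), the transcription factor of the G2 programme, had 9.51, 14.1, 10.3 and 9.57 CPM with the combination, 7.00, 6.56, 4.53 and 4.45 with fatty acids, 5.34, 4.90, 7.05 and 4.40 with formoterol and 3.06, 2.87, 4.46 and 2.93 in control. Combination libraries stood above all others, while control replicate 3 reached into the range of fatty acids and formoterol. FOXM1 rose by 1.71 ± 0.20, 0.76 ± 0.20 and 0.70 ± 0.20 (adjusted p = 3.78e-06, 0.0132 and 0.0318). Its fatty acid call was lost without fatty acids replicate 1 (0.0608), and its formoterol call without control replicate 1 (0.0751), control replicate 2 (0.0862), control replicate 4 (0.0869), formoterol replicate 1 (0.0583) or formoterol replicate 3 (0.121). FOXM1 shares 15.9% of its exon bases with ITFG2 on the other strand, whose counts were 0.764 times its own, and the strandedness of the counts is not given. CCNA2 (cyclin A2), CDC25C and CDCA3 changed by 1.45 ± 0.20, 1.64 ± 0.26 and 1.33 ± 0.29 with the combination, and all 3 passed. CDC25C shares 8.78% of its exon bases with FAM53C, which had 12.9 times its counts, so its level is uncertain.

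The 3 mitotic kinases rose with the combination and with fatty acids, and AURKA also with formoterol. AURKA (ENSG00000087586, chromosome 20, 56369389 to 56392337, minus strand), the Aurora A kinase of centrosomes and spindle poles, had 22.7, 31.0, 22.6 and 21.1 CPM with the combination, 12.5, 12.0, 10.1 and 11.4 with fatty acids, 11.8, 13.1, 10.9 and 14.4 with formoterol and 9.33, 7.83, 9.39 and 8.86 in control. Every combination library lay above every other library, fatty acids and formoterol overlapped, and both lay above control. Its change was 1.46 ± 0.13 with the combination, 0.38 ± 0.13 with fatty acids and 0.51 ± 0.13 with formoterol (edgeR adjusted p = 5.08e-08, 0.0447 and 0.0125). Against fatty acids the combination was higher by 1.08 ± 0.12 (adjusted p = 1.20e-05), the highest change and the smallest p of the 43 genes in that comparison. The fatty acid call rested on the full set: it held in 5 of the 16 fits that leave out 1 library and was lost without combination replicate 1 (0.053), combination replicate 3 (0.0509), control replicate 1 (0.0636), control replicate 2 (0.121), control replicate 3 (0.0603), control replicate 4 (0.0886), fatty acids replicate 1 (0.138), fatty acids replicate 2 (0.101), fatty acids replicate 4 (0.0772), formoterol replicate 1 (0.0524) or formoterol replicate 2 (0.0536). The formoterol call was lost without formoterol replicate 4 (0.0574). PLK1 (ENSG00000166851, chromosome 16, 23677656 to 23690367, plus strand), the polo-like kinase of mitotic entry, had 10.0, 15.5, 11.4 and 9.82 CPM with the combination, 8.00, 7.13, 5.27 and 5.89 with fatty acids, 3.97, 5.59, 5.89 and 6.00 with formoterol and 2.41, 3.60, 5.52 and 4.47 in control. Combination libraries were above all others, and fatty acids and formoterol overlapped with control. It rose by 1.54 ± 0.22 with the combination and 0.71 ± 0.22 with fatty acids (adjusted p = 2.88e-05 and 0.0273), and its formoterol value was 0.42 ± 0.22 (adjusted p = 0.246). The fatty acid call of PLK1 was lost without control replicate 1 (0.0963), control replicate 2 (0.0668), fatty acids replicate 1 (0.103) or fatty acids replicate 2 (0.0694). NEK2, a centrosome kinase, rose by 1.34 ± 0.20 with the combination and 0.75 ± 0.20 with fatty acids.

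The chromosomal passenger complex corrects wrong attachments with the kinase AURKB, its scaffold INCENP, and BIRC5 (survivin) and CDCA8 (borealin), which place it on chromosomes. All 4 genes rose with the combination, 3 with fatty acids and 0 with formoterol. AURKB (ENSG00000178999, chromosome 17, 8204733 to 8210600, minus strand) had 7.30, 8.30, 4.98 and 7.35 CPM with the combination, 3.72, 5.78, 3.17 and 4.22 with fatty acids, 1.88, 2.73, 4.48 and 2.53 with formoterol and 2.05, 1.60, 2.63 and 2.71 in control. Combination and fatty acid libraries overlapped with each other and both lay above control, and formoterol overlapped with fatty acids and control. The change was 1.63 ± 0.25 and 0.91 ± 0.26 with the combination and fatty acids (edgeR adjusted p = 0.000102 and 0.0175), and the fatty acid call was lost without control replicate 2 (0.0572) or fatty acids replicate 2 (0.0791). BIRC5 and CDCA8 rose by 1.59 ± 0.16 and 1.54 ± 0.17 with the combination. INCENP had the smallest of the 40 rises with the combination, 0.56 ± 0.13, and with fatty acids its 0.36 ± 0.13 missed the threshold (adjusted p = 0.0661). It passed there without combination replicate 2 (0.0387) or control replicate 3 (0.0122).

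Of the 5 spindle checkpoint genes, 4 rose with the combination and with fatty acids, and MAD2L1 also with formoterol. BUB1 (ENSG00000169679, chromosome 2, 110637698 to 110678114, minus strand), a checkpoint kinase of kinetochores, had 31.6, 53.5, 30.6 and 32.2 CPM with the combination, 24.4, 28.3, 23.3 and 17.8 with fatty acids, 14.9, 17.4, 15.4 and 13.3 with formoterol and 10.5, 11.2, 13.6 and 10.2 in control. Combination, fatty acids and the pair of formoterol and control were separate, and formoterol replicate 4 lay within the control range. BUB1 rose by 1.70 ± 0.17 with the combination and 1.04 ± 0.16 with fatty acids (edgeR adjusted p = 2.70e-07 and 0.00012), and with formoterol it stood at 0.42 ± 0.17 (adjusted p = 0.113). MAD2L1, the Mad2 protein that blocks CDC20, rose by 1.62 ± 0.18, 1.13 ± 0.18 and 0.66 ± 0.18 with the combination, fatty acids and formoterol. Its formoterol call was lost without control replicate 1 (0.0673), control replicate 2 (0.0644), formoterol replicate 3 (0.0628) or formoterol replicate 4 (0.072). BUB1B (BubR1) and the kinase TTK (Mps1) rose by 1.76 ± 0.26 and 1.45 ± 0.19 with the combination. BUB3 (ENSG00000154473, chromosome 10, 123154277 to 123170467, plus strand), the partner of both BUB proteins, had 96.6, 113, 95.7 and 98.6 CPM with the combination, 96.7, 109.9, 103 and 95.1 with fatty acids, 89.3, 91.1, 84.4 and 96.5 with formoterol and 95.4, 93.6, 88.1 and 87.9 in control. Its libraries overlapped between nearly all groups, apart from the combination, which lay just above control. None of its 5 pairwise changes passed, the largest being 0.16 ± 0.07 for the combination against formoterol (adjusted p = 0.103).

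At centromere and kinetochore, all 6 genes rose with the combination, 5 with fatty acids and 0 with formoterol. CENPF (ENSG00000117724, chromosome 1, 214603195 to 214664588, plus strand), a large kinetochore protein that accumulates in G2, had 43.8, 86.8, 49.5 and 46.4 CPM with the combination, 34.4, 32.9, 31.0 and 25.1 with fatty acids, 18.1, 21.4, 24.4 and 17.0 with formoterol and 15.1, 16.0, 17.2 and 13.6 in control. The combination lay above fatty acids and these above formoterol and control, which overlapped. Its change was 1.87 ± 0.17 with the combination, 0.99 ± 0.17 with fatty acids and 0.38 ± 0.17 with formoterol (edgeR adjusted p = 1.49e-07, 0.000329 and 0.182). NDC80 (ENSG00000080986, chromosome 18, 2571511 to 2616635, plus strand), which binds microtubules, had 15.4, 28.3, 14.4 and 14.8 CPM with the combination, 12.9, 12.9, 8.76 and 11.6 with fatty acids, 6.45, 6.77, 9.40 and 6.55 with formoterol and 4.60, 4.93, 5.63 and 4.42 in control. Each group lay above the next except that formoterol replicate 3 was above the lowest fatty acid library. It rose by 1.89 ± 0.20 and 1.24 ± 0.20 with the combination and fatty acids (adjusted p = 8.46e-07 and 0.000154), with 0.57 ± 0.20 under formoterol (adjusted p = 0.0753). SPC25 (ENSG00000152253, chromosome 2, 168834132 to 168913371, minus strand), from the same complex, had 6.07, 8.01, 5.98 and 4.68 CPM with the combination, 4.95, 6.83, 4.65 and 4.32 with fatty acids, 2.26, 2.22, 2.25 and 2.91 with formoterol and 1.90, 1.97, 2.33 and 1.34 in control. Combination and fatty acids overlapped and lay above formoterol and control, which overlapped as well. The rise of SPC25 was 1.71 ± 0.21 with the combination and 1.46 ± 0.21 with fatty acids (adjusted p = 5.99e-06 and 4.65e-05), and the combination minus fatty acids was 0.25 ± 0.20 (adjusted p = 0.635). NUF2, the partner of NDC80, rose by 1.69 ± 0.28, the motor CENPE by 1.34 ± 0.16 and the centromeric histone CENPA by 1.36 ± 0.28 with the combination. CENPA shares 6.96% of its exon bases with SLC35F6, which had 19.0 times its counts, so its level is uncertain.

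Among the 3 genes of anaphase and its ubiquitin ligase, CDC20 and PTTG1 rose with the combination and with fatty acids. CDC20 (ENSG00000117399, chromosome 1, 43358955 to 43363203, plus strand), the activator of the anaphase-promoting complex, had 15.5, 30.1, 14.6 and 15.7 CPM with the combination, 8.49, 11.6, 8.79 and 8.92 with fatty acids, 5.94, 7.52, 7.02 and 6.55 with formoterol and 3.59, 6.03, 4.01 and 3.55 in control. Combination, fatty acids and formoterol did not overlap, and control replicate 2 reached into the formoterol range. With 2.14 ± 0.21 it had the highest change of the 43 genes in the combination, and it rose by 1.14 ± 0.21 with fatty acids (edgeR adjusted p = 3.90e-07 and 0.000706), with 0.65 ± 0.21 under formoterol (adjusted p = 0.0558). PTTG1 (securin), the inhibitor of separase, rose by 1.47 ± 0.18 with the combination and 0.69 ± 0.18 with fatty acids, and the second call was lost without control replicate 1 (0.0509) or fatty acids replicate 2 (0.0581). UBE2C (ENSG00000175063, chromosome 20, 45812576 to 45816957, plus strand), the ubiquitin-conjugating enzyme of the same ligase, did not follow and had 0.379, 0.267, 0.172 and 0.557 CPM with the combination, 0.849, 0.632, 0.977 and 0.607 with fatty acids, 0.543, 0.990, 0.708 and 0.371 with formoterol and 0.327, 0.522, 0.616 and 0.894 in control. The combination lay below fatty acids in every library and overlapped with formoterol and control. The difference was −1.16 ± 0.46 against fatty acids and −0.78 ± 0.47 against control, and neither passed (adjusted p = 0.233 and 0.315). UBE2C had 340 counts in all 16 libraries, 7 to 37 in each, so its changes are poorly resolved, and its pseudogene UBE2CP2 had 121, so the split of reads between copies is uncertain.

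All 9 genes of spindle motors and microtubule proteins rose with the combination, 8 with fatty acids and 2, KIF2C and KIF4A, with formoterol. KIF4A (ENSG00000090889, chromosome X, 70290090 to 70420832, plus strand), a chromosome-bound kinesin, had 16.2, 21.5, 12.7 and 10.3 CPM with the combination, 9.81, 9.84, 7.93 and 7.86 with fatty acids, 7.25, 8.00, 8.27 and 6.96 with formoterol and 3.62, 4.23, 5.07 and 5.14 in control. Combination libraries lay above the others, formoterol and fatty acids overlapped, and both lay above control. KIF4A rose by 1.75 ± 0.18, 0.97 ± 0.18 and 0.75 ± 0.18 with the combination, fatty acids and formoterol (edgeR adjusted p = 8.10e-07, 0.000784 and 0.0117), and the last was the highest change of the 43 genes with formoterol. KIF11 (ENSG00000138160, chromosome 10, 92593286 to 92655395, plus strand), the Eg5 motor that pushes spindle poles apart, had 34.9, 59.7, 35.8 and 32.3 CPM with the combination, 25.0, 33.0, 27.6 and 24.8 with fatty acids, 17.6, 18.9, 22.6 and 17.4 with formoterol and 13.4, 18.1, 15.3 and 12.0 in control. Both groups with fatty acids lay above formoterol and control, with the highest fatty acid library inside the combination range and formoterol overlapping control. It rose by 1.47 ± 0.17 and 0.91 ± 0.17 with the combination and fatty acids (adjusted p = 2.14e-06 and 0.000557). TPX2 (ENSG00000088325, chromosome 20, 31739271 to 31801805, plus strand), which activates AURKA on the spindle, had 41.6, 72.2, 46.3 and 35.7 CPM with the combination, 29.2, 36.2, 26.9 and 22.1 with fatty acids, 21.0, 17.3, 23.4 and 17.3 with formoterol and 14.9, 13.4, 17.5 and 15.8 in control. Fatty acid replicate 2 reached above combination replicate 4, fatty acid replicate 4 lay below formoterol replicate 3, and formoterol overlapped control. TPX2 rose by 1.67 ± 0.18 and 0.89 ± 0.18 (adjusted p = 8.95e-07 and 0.00116). The microtubule depolymerase KIF2C rose by 1.93 ± 0.20, 0.90 ± 0.20 and 0.72 ± 0.20 with the combination, fatty acids and formoterol, and the last call was lost without control replicate 2 (0.0503), control replicate 3 (0.0531), control replicate 4 (0.0671), formoterol replicate 1 (0.0565) or formoterol replicate 2 (0.0804). ASPM, HMMR and DLGAP5, all spindle proteins, rose by 1.61 ± 0.18, 1.62 ± 0.18 and 1.64 ± 0.20 with the combination. CKAP2 rose by 0.86 ± 0.16, below the lower quartile of the 43 genes. NUSAP1 rose by 1.52 ± 0.35 with the combination, but 62.2% of its exon bases are shared with the gene AC087721.2, which had 0 counts, and how shared reads were counted is not given.

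In cytokinesis, all 4 tested genes rose with the combination and with fatty acids, and ECT2 also with formoterol. ANLN (ENSG00000011426, chromosome 7, 36389806 to 36453791, plus strand), the anillin scaffold of the contractile ring, had 90.7, 159.8, 85.6 and 84.4 CPM with the combination, 59.3, 80.8, 52.6 and 58.6 with fatty acids, 36.5, 40.2, 41.9 and 34.3 with formoterol and 27.6, 29.2, 35.8 and 26.2 in control. The combination lay above fatty acids and fatty acids above formoterol and control, with 1 control library inside the formoterol range. ANLN rose by 1.82 ± 0.17 and 1.08 ± 0.17 (edgeR adjusted p = 1.63e-07 and 0.000111). ECT2, the exchange factor that activates RhoA at the cleavage site, rose by 1.16 ± 0.11, 0.67 ± 0.11 and 0.34 ± 0.11 with the combination, fatty acids and formoterol. Its formoterol call held in 6 of the 16 fits and was lost without control replicate 1 (0.107), control replicate 2 (0.0613), control replicate 3 (0.117), control replicate 4 (0.066), fatty acids replicate 1 (0.062), fatty acids replicate 4 (0.0522), formoterol replicate 1 (0.0646), formoterol replicate 2 (0.106), formoterol replicate 3 (0.0827) or formoterol replicate 4 (0.0894). The kinesins KIF20A and KIF23 rose by 1.78 ± 0.22 and 1.83 ± 0.21 with the combination. PRC1, which bundles the microtubules of the central spindle, had 94 counts in all 16 libraries, with 11, 5, 11 and 3 counts with the combination, 12, 5, 3 and 6 with fatty acids, 2, 13, 0 and 9 with formoterol and 1, 2, 1 and 10 in control. All groups overlapped, and it was not tested. A count of 0 allows a level of up to 3 counts. PRC1 shares 57.6% of its exon bases with AC068831.7, which had 589 counts, so its level is uncertain.

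The 2 genes of the mitotic chromosome, TOP2A and MKI67, rose with the combination and with fatty acids. TOP2A (ENSG00000131747, chromosome 17, 40388516 to 40417950, minus strand) had 158, 257, 158 and 143 CPM with the combination, 107, 127, 95.8 and 86.6 with fatty acids, 68.5, 64.0, 75.1 and 63.7 with formoterol and 45.7, 49.1, 59.5 and 48.2 in control. The 4 groups were separate, the combination highest and control lowest. Its change was 1.82 ± 0.15 with the combination and 1.04 ± 0.15 with fatty acids (edgeR adjusted p = 2.00e-08 and 3.08e-05), in both the smallest p of the 43 genes, and 0.42 ± 0.15 with formoterol (adjusted p = 0.0707). MKI67 (ENSG00000148773, chromosome 10, 128096659 to 128126385, minus strand), the Ki-67 protein that coats mitotic chromosomes and is the usual stain for dividing cells, had 61.5, 115, 69.5 and 63.0 CPM with the combination, 45.3, 51.6, 43.4 and 35.8 with fatty acids, 26.8, 20.0, 29.4 and 22.1 with formoterol and 14.8, 23.5, 27.1 and 20.9 in control. Combination and fatty acid libraries were separate, and formoterol and control lay in 1 range below them. MKI67 rose by 1.84 ± 0.19 and 1.03 ± 0.19 (adjusted p = 6.13e-07 and 0.000548), its formoterol value was 0.18 ± 0.19 (adjusted p = 0.607), and it had the highest change of the combination against formoterol at 1.65 ± 0.19 (adjusted p = 3.68e-06).

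For the combination against fatty acids, the calls of some genes named above ended with single fatty acid libraries. CDK1 was lost without fatty acids replicate 3 (0.054) or fatty acids replicate 4 (0.05001), CCNB1 without fatty acids replicate 3 (0.0529) and PLK1 without combination replicate 2 (0.0801), combination replicate 3 (0.0541), fatty acids replicate 2 (0.0591), fatty acids replicate 3 (0.126) or fatty acids replicate 4 (0.0989). BUB1 was lost without combination replicate 2 (0.0626), fatty acids replicate 1 (0.0562), fatty acids replicate 3 (0.0733) or fatty acids replicate 4 (0.0976), and KIF4A without combination replicate 1 (0.0504), fatty acids replicate 3 (0.0655) or fatty acids replicate 4 (0.064). TPX2 was lost without fatty acids replicate 3 (0.0529) or fatty acids replicate 4 (0.0607), ANLN without fatty acids replicate 3 (0.0646) or fatty acids replicate 4 (0.0509) and MKI67 without fatty acids replicate 3 (0.0512) or fatty acids replicate 4 (0.0662). Their changes with all libraries were 0.69 ± 0.15, 0.66 ± 0.14, 0.83 ± 0.21, 0.66 ± 0.16, 0.78 ± 0.18, 0.78 ± 0.17, 0.74 ± 0.17 and 0.81 ± 0.18 in that order. Adjusted p-values in brackets are edgeR's.

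CCNB2 (ENSG00000157456), the second mitotic B-type cyclin, was the other gene that did not follow and was singled out after its values were seen. It had 0.117, 0.187, 0.343 and 0.584 CPM with the combination, 0.234, 0.241, 0.207 and 0.202 with fatty acids, 0.171, 0.268, 0.258 and 0.202 with formoterol and 0.386, 0.232, 0.476 and 0.335 in control. All groups overlapped, and its changes of −0.21 ± 0.53, −0.69 ± 0.55 and −0.67 ± 0.54 did not pass edgeR's test (adjusted p = 0.861, 0.455 and 0.500). It had 163 counts in all 16 libraries, 4 to 21 in each, against 11048 for CCNB1, and it shares no exon bases with another annotated gene. Its promoter, printed above, holds a CHR element and 3 CCAAT boxes in the 150 bases before the start.

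Across the 16 libraries, the log2 levels of single members followed the mean of the 43 standardised genes with a Pearson correlation from 0.828 (CDCA3) to 0.993 (TOP2A) in 40 genes. The other values were 0.710 for BUB3, −0.190 for CCNB2 and −0.371 for UBE2C. Each gene is itself part of that mean, and the 16 libraries fall into 4 groups, so these are descriptions. Outside the set, among the 13942 genes that averaged 1 CPM or more, the patterns most like it were those of RRM2 (0.984), NCAPG (0.979), NCAPG2 (0.977), CEP55 (0.977), TK1 (0.976) and FANCI (0.974). RRM2, a ribonucleotide reductase subunit, averaged 121 ± 26.3 CPM with the combination, 78.7 ± 12.7 with fatty acids, 50.4 ± 5.61 with formoterol and 36.3 ± 3.85 in control (SD, n = 4).

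Other genes of the cell cycle were taken from lists of their roles. Of 51 further mitotic genes tested, 48 rose with the combination, 34 with fatty acids and 2 with formoterol against control, and 0 fell, with median log2 fold changes of 1.39, 0.72 and 0.23. SPAG5 and TACC3, both spindle proteins, had the smallest p with the combination at 1.32 ± 0.12 and 1.42 ± 0.13 (edgeR adjusted p = 1.58e-07 for both). Of 26 genes of DNA replication, 23 rose with the combination, 15 with fatty acids and 2 with formoterol, and 0 fell, with medians of 1.00, 0.47 and 0.16. RRM2 rose by 1.73 ± 0.13, 1.12 ± 0.13 and 0.48 ± 0.13 (adjusted p = 7.23e-09, 3.16e-06 and 0.0222), and CDC6, which loads the replicative helicase, rose by 1.52 ± 0.14 with the combination (adjusted p = 1.65e-07). Over all tested genes 7.58%, 8.93% and 5.76% rose in the same order, so the formoterol count of 2 in each list is near the background. Without combination replicate 2, 45 mitotic and 22 replication genes rose with the combination, and 11 and 3 with formoterol. In that fit 15.2% of all genes changed in either direction with the combination and 14.0% with formoterol.

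Of 16 genes of the anaphase-promoting complex, the ligase that mitosis uses, and its regulators, 1 rose with the combination, 1 with fatty acids and 0 with formoterol, with medians of 0.04, 0.02 and 0.03. Over all tested genes 7.58%, 8.93% and 5.76% rose, so these counts are near the background. FBXO5 (Emi1), an inhibitor of the ligase and not a subunit, rose by 0.91 ± 0.18 with the combination (edgeR adjusted p = 0.00127), and the subunit CDC23 by 0.35 ± 0.08 with fatty acids (adjusted p = 0.00508). Of 18 DREAM, RB and E2F regulators, 7 rose and 2 fell with the combination, 5 rose and 1 fell with fatty acids, and 1 rose and 1 fell with formoterol. Over all tested genes 6.68%, 7.62% and 4.57% fell, so the falls and the formoterol counts are near the background. TFDP1, the partner of E2F proteins, averaged 50.0 ± 2.75 CPM with the combination, 45.2 ± 2.55 with fatty acids, 38.7 ± 2.25 with formoterol and 31.6 ± 1.65 in control (SD, n = 4), and rose by 0.67 ± 0.07, 0.52 ± 0.07 and 0.29 ± 0.07 (adjusted p = 6.18e-07, 1.42e-05 and 0.00834). RBL2 (p130) is the pocket protein of DREAM in resting cells. It averaged 113 ± 5.67 CPM with the combination, 130 ± 6.58 with fatty acids, 111 ± 10.5 with formoterol and 149 ± 10.8 in control. RBL2 fell by 0.43 on the log2 scale with formoterol (adjusted p = 0.000676). The RBL2 means with the combination and with fatty acids were below control as well. In the fit without combination replicate 2 these falls were 0.43 and 0.20 (edgeR adjusted p = 0.000128 and 0.0334). Their tests with all libraries are not given here.

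The G1 cyclins and kinases differed in direction. Of 10 tested, 3 rose and 2 fell with the combination, 2 rose and 2 fell with fatty acids, and 0 rose and 2 fell with formoterol. Over all tested genes 7.58%, 8.93% and 5.76% rose and 6.68%, 7.62% and 4.57% fell, in the same order. CCND1 (cyclin D1) averaged 107 ± 8.19 CPM with the combination, 99.9 ± 3.91 with fatty acids, 114 ± 1.11 with formoterol and 137 ± 4.61 in control (SD, n = 4). It fell in all 3 treated groups, by 0.36, 0.46 and 0.27 on the log2 scale (edgeR adjusted p = 0.000126, 7.74e-06 and 0.00504). The phosphatase CDC25A rose by 1.16 ± 0.19 with the combination and 0.87 ± 0.19 with fatty acids (adjusted p = 0.000200 and 0.00331). Of 15 CDK inhibitors and p53 targets, 8 rose and 2 fell with the combination, 5 rose and 2 fell with fatty acids, and 1 rose and 2 fell with formoterol. Counts of 1 or 2 in lists of 10 or 15 genes are too small to set apart from the shares over all genes. CDKN2B (p15), an inhibitor of CDK4 and CDK6, averaged 31.6 ± 2.27 CPM with the combination, 37.2 ± 3.37 with fatty acids, 35.6 ± 2.49 with formoterol and 50.2 ± 3.88 in control. It fell by 0.67, 0.43 and 0.49 on the log2 scale (adjusted p = 4.72e-06, 0.000677 and 0.000533). BTG2, an antiproliferative p53 target, averaged 178 ± 17.3 CPM with the combination, 171 ± 3.10 with fatty acids, 139 ± 5.68 with formoterol and 210 ± 7.01 in control. It fell by 0.60 with formoterol (adjusted p = 4.54e-06), and its interaction was 0.65 ± 0.09 (edgeR adjusted p = 0.000495). The BTG2 means with fatty acids and with the combination were below control as well. In the fit without combination replicate 2 these falls were 0.29 and 0.16 (edgeR adjusted p = 0.000102 and 0.0403). Their tests with all libraries are not given here.

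Markers of the cell types in the culture moved as well. Of 17 hepatocyte markers, 9 rose and 2 fell with the combination, 11 rose and 1 fell with fatty acids, and 13 rose and 0 fell with formoterol, and without combination replicate 2 the first count was 13 up and 3 down. Over all tested genes 7.58%, 8.93% and 5.76% rose and 6.68%, 7.62% and 4.57% fell with the combination, fatty acids and formoterol. ALB (albumin) averaged 21710 ± 7971 CPM with the combination, 29998 ± 1654 with fatty acids, 31357 ± 599.5 with formoterol and 16504 ± 3495 in control (SD, n = 4). It rose with fatty acids and formoterol, while its 0.40 ± 0.20 with the combination did not pass (edgeR adjusted p = 0.210) but passed without combination replicate 2 (0.64, adjusted p = 1.62e-05). HNF4A, a transcription factor of hepatocytes, averaged 123 ± 32.9 CPM with the combination, 122 ± 8.68 with fatty acids, 163 ± 11.2 with formoterol and 95.3 ± 4.14 in control. It rose with formoterol (adjusted p = 0.000781), and its 0.37 ± 0.13 with the combination and 0.36 ± 0.13 with fatty acids did not pass (adjusted p = 0.0627 and 0.0666). Without combination replicate 2 these were 0.55 and 0.36 and passed (adjusted p = 1.22e-06 and 0.000143). CYP3A4, a drug-metabolising enzyme, went the other way and averaged 663 ± 306 CPM with the combination, 1918 ± 146 with fatty acids, 2374 ± 182 with formoterol and 2181 ± 470.2 in control. It fell by 1.72 on the log2 scale with the combination (adjusted p = 6.46e-05), and by 1.43 without replicate 2. CPS1, a urea cycle enzyme, rose by 1.47 ± 0.07 with formoterol and 0.62 ± 0.07 with the combination (adjusted p = 3.09e-11 and 3.26e-06). Of 8 cholangiocyte markers tested, 3 rose and 1 fell with the combination, 4 rose and 1 fell with fatty acids, and 1 rose and 0 fell with formoterol. Over all 12 listed markers, tested or not, the sums were 367 to 463 CPM with the combination, 432 to 491 CPM with fatty acids and 307 to 315 CPM with formoterol, against 267 to 288 CPM in control. KRT19, a bile duct keratin, averaged 126 ± 10.2 CPM with the combination, 168 ± 11.5 with fatty acids, 55.4 ± 2.78 with formoterol and 58.7 ± 6.40 in control (SD, n = 4). SOX9, a bile duct transcription factor, averaged 22.1 ± 2.48 CPM with the combination, 29.2 ± 2.30 with fatty acids, 47.5 ± 2.49 with formoterol and 47.9 ± 3.38 in control, and fell by 1.12 on the log2 scale with the combination (adjusted p = 7.23e-09). EPCAM had 0 counts in all 16 libraries. The part of these shifts in the mitotic results was not tested.

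Markers of other cell types were summed in the same way, over all listed genes, tested or not. Of stellate and fibroblast markers 8 of 10 were tested, and the sums were 610 to 769 CPM with the combination, 761 to 889 CPM with fatty acids, 472 to 516 CPM with formoterol and 644 to 807 CPM in control, with COL1A2 at 0 counts. Most of these sums came from DCN, which averaged 483 CPM with the combination, 637 with fatty acids, 349 with formoterol and 537 in control. COL1A1 had another order and averaged 5.20, 3.99, 7.17 and 7.67 CPM in the same groups. Macrophage and leukocyte markers, 3 of 6 tested, summed to 12.6 to 26.1 CPM with the combination, 18.2 to 21.5 CPM with fatty acids and 25.6 to 32.1 CPM with formoterol, against 21.8 to 27.2 CPM in control, with 13 counts of PTPRC in all. Endothelial markers, 2 of 5 tested, summed to 52.5 to 107 CPM with the combination, 158 to 171 CPM with fatty acids and 38.9 to 50.6 CPM with formoterol, against 117 to 133 CPM in control, with CDH5 at 0 counts. Nearly all of these sums came from KDR, which averaged 70.2 CPM with the combination, 162 with fatty acids, 44.2 with formoterol and 119 in control. PECAM1 averaged 2.97, 3.13, 1.25 and 1.71 CPM in that order. Progenitor markers, 4 of 7 tested, summed to 191 to 208 CPM with the combination, 164 to 184 CPM with fatty acids and 115 to 131 CPM with formoterol, against 112 to 126 CPM in control. Most of these sums came from CD44, which averaged 174 CPM with the combination, 152 with fatty acids, 104 with formoterol and 98.3 in control. CD44 rose by 0.83 ± 0.06 with the combination (edgeR adjusted p = 6.13e-09). It was the only 1 of the 4 tested that rose with the combination or with fatty acids, and 0 rose with formoterol.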

How the data were processed

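Gene counts of 16 libraries were used as deposited by the authors; all values entered as whole-number counts. Per the submitters' processing notes, HISAT2 2.0.5 and DESeq2 were used and the build is mm39, but all 58735 gene IDs of the table are human and match the names and coordinates of GENCODE release 29 (GRCh38). For how reads were counted, and whether by strand, nothing is given in the sources used here. Levels of overlapping genes are therefore uncertain.

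Genes were filtered with filterByExpr (18121 kept, at least 99.9% of the counts of each library), scaled with TMM factors and tested with edgeR 4.0.16 (quasi-likelihood, 4 group means over 16 libraries, R 4.3.3), with Benjamini-Hochberg adjustment over all tested genes at 0.05. A non-overlap means that every library of one group exceeds every library of the other. CPM and RPKM were computed from the counts, RPKM with the gene length of the table, and log2 CPM used a prior count of 2. Outside the model, values are mean ± SD over 4 libraries.

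Total counts were 32471299 to 65673126 per library. The members, the lists and the tests were chosen with earlier results of these data known. Per-library values are given for 17 members chosen by role and for the member with the smallest p, the largest and the smallest change of each comparison, which gave 19; CCNB2 and PRC1 were added after their values were seen. Genes named from other lists are among the up to 2 per list and comparison with the smallest p, not all of which are described; ALB, HNF4A, KRT19 and EPCAM are always named. Alternatives were other scalings and filters, DESeq2 1.42.0, the replicate number as a block, only the groups compared, and each library left out in turn. On simulated data the share of false calls was 3.53% to 8.46%, above the aim of 5% for formoterol against control (7.73%), the combination against control (7.02%) and the interaction (8.46%). Of 1.5-fold changes 40% were recovered for the interaction and 65% to 73% for the other comparisons. Each comparison had a single simulated draw with 200 changed genes, fewer than the real tests called, and no outlying library. The sampling error of these shares was not measured. Replicate numbers did not pair the libraries.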

Additional observations from a re-analysis of the deposited data

Results flagged for a closer look

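Within a group of 4 libraries, a level was marked when the gap between the highest or lowest library and its nearest neighbour exceeded 0.829 of the range (Dixon's criterion). Of 92 groups checked over 21 genes and 2 summed levels, 19 were marked, and 14 of the 19 lie in combination replicate 2. Chance would mark about 1 in 20 if the groups were independent. They are not, because the genes move together and the mitotic sum holds the same genes. The 14 marks therefore describe a single library.

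In that library the mitotic genes were high. CCNB1 stood at 43.0 CPM (the other 3 libraries at 24.5 to 26.4), CDK1 at 42.9 (27.1 to 28.8), AURKA at 31.0 (21.1 to 22.7) and BUB1 at 53.5 (30.6 to 32.2). BUB3 reached 113 CPM (95.7 to 98.6), CENPF 86.8 (43.8 to 49.5), NDC80 28.3 (14.4 to 15.4) and CDC20 30.1 (14.6 to 15.7). KIF11 reached 59.7 CPM (32.3 to 35.8), ANLN 159.8 (84.4 to 90.7), TOP2A 257 (143 to 158) and MKI67 115 (61.5 to 69.5). The sum of the 43 tested mitotic genes was 1804 CPM (1065 to 1114), and the sum of the hepatocyte markers was the lowest of the group at 28041 CPM (61215 to 68019).

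The other 5 marked levels are each the highest of their group. FOXM1 stood at 4.46 CPM in control replicate 3, NDC80 at 9.40 CPM in formoterol replicate 3, SPC25 at 2.91 CPM in formoterol replicate 4, CDC20 at 11.6 CPM in fatty acids replicate 2, and PRC1 at 0.279 CPM, 10 counts, in control replicate 4.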

How the results depend on the processing

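The counts of higher genes among the tested members (41 to 44 by setting) kept within 1.5 times of the reported ones for the following comparisons. They were 40 in every alternative for the combination against control. For the combination against formoterol they were 39 to 41, and 38 to 40 with 1 library left out. For fatty acids against control they were 34 to 38, and 28 to 38 with 1 library left out. For the combination against fatty acids the count was 22 and fell outside that range with only the groups compared (9), and leaving out 1 library gave 9 to 24. Of all genes 2.80% changed in either direction in the reported fit and 1.61% with only the groups compared. For formoterol against control it was 8, but 20 without a filter on low counts, 16 with only the groups compared, 13 with the replicate block and 1 with scaling by total counts alone, and leaving out 1 library gave 4 to 18. The interaction had 0, but 1 with DESeq2, 1 with at least 1 CPM in 4 libraries, 7 without a filter and 1 with total counts alone, and 0 to 1 with 1 library left out. Here 5.50% of all genes changed as reported, and 8.05%, 7.35%, 4.40% and 7.62% in the 4 named settings, in order. The causes were not tested.

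Over single genes and comparisons, 5638 of 5875 alternative values kept direction and side of the threshold, 142 no longer passed, 95 newly passed, and none of the called ones changed sign. Same-numbered libraries of different groups correlated at −0.113 to 0.0825 over 24 pairs, none above 0.1, and 7 of 16 libraries correlated best with their own number, so the numbers are not read as pairs. With the replicate block the counts were 40 for the combination against control, 37 for fatty acids, 13 for formoterol, 26 and 40 for the combination against fatty acids and formoterol, and 0 for the interaction. Depth limits CCNB2, UBE2C and PRC1, which had 163, 340 and 94 counts in all.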
